A study of Mus musculus with 6 samples.

Results

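Described here are 10 genes of a table of 52550, chosen by their symbols, which are Vegfa, Vegfb, Vegfc, Kdr, Flt1, Nrp1, Angpt1, Angpt2, Apln and Aplnr: the ligands and receptors of vascular endothelial growth factor (VEGF), angiopoietin and apelin signalling. All 10 symbols were found, each under 1 gene ID, and all 10 passed the filter on low counts. Inguinal white adipose tissue, a subcutaneous depot of C57BL/6 mice, was sequenced in 3 libraries from fat injected with an adeno-associated virus (AAV) carrying the coding sequence of mouse Hnrnpa2b1, named A2B1 1 to 3 here, and 3 libraries from fat injected with AAV expressing a scrambled control, named control 1 to 3. The series text calls the control AAV GFP. Both groups share the strain, the tissue and an AAV injection, while the labels used here name no age, viral promoter or time after injection. Hnrnpa2b1 encodes an hnRNP protein with roles in splicing and in moving RNA within the cell.

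Blood vessels of fat grow and rest under the control of these ligands. Vegfa is released by adipocytes and other cells and signals through Kdr (VEGFR2) on endothelial cells, while Flt1 (VEGFR1) binds Vegfa tightly with little signal of its own and acts in large part as a decoy, and Nrp1 is a co-receptor. Vegfb binds Flt1, and Vegfc acts chiefly on the Flt4 receptor of lymphatic vessels. Angpt1, made by mural and stromal cells, activates the endothelial receptor Tek and keeps vessels quiet; Angpt2, made by endothelial cells, competes with it in many settings. Apelin (Apln) is a peptide hormone of adipocytes and of the leading endothelial cells of sprouts, and Aplnr is its G protein-coupled receptor.

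The libraries held 72961324 to 86663359 counts. The submitters label the source as adipocytes, and markers of mature adipocytes were abundant in every library: the 15 markers listed summed to 57300 to 59495 CPM (the count divided by the TMM-scaled library size in megareads) in A2B1 libraries and 49584 to 59420 CPM in controls. Transcripts of endothelial cells were also present in every library, at a summed level given with the receptors. Hnrnpa2b1 itself had 763, 789 and 748 CPM in the A2B1 libraries, against 555, 525 and 605 CPM in control libraries 1 to 3. This 1.36-fold difference (log2 0.45, SE 0.09) missed the threshold in edgeR, with adjusted p = 0.0654. It passed in DESeq2 (adjusted p = 0.00241) and in limma-voom (adjusted p = 0.0496), and the groups did not overlap. A principal component analysis placed 52.8% of the variance on its first axis, where A2B1 1 lay at -107.6 and A2B1 3 at -50.6, apart from A2B1 2 at 18.1, which sat next to the controls at 26.4 to 69.6. Markers of other cell types stood out in single libraries. B and T cell markers summed to 352 to 426 CPM in A2B1 libraries and 814 to 1649 CPM in controls, highest in control 1. Nearly all of that sum was Ighm, the heavy chain of immunoglobulin M, which stood at -1.37 in log2 terms (edgeR adjusted p = 0.051). The other 11 markers summed to 7.28, 16.1 and 14.98 CPM in A2B1 libraries and 299.4, 46.1 and 11.3 CPM in controls, so control 3 lay within the A2B1 range and control 1 far above all others. Skeletal muscle markers summed to 3.72 to 14.3 CPM in A2B1 libraries and 22.9 to 101.9 CPM in controls, highest in control 3, while epithelial markers summed to 9.71 to 57.1 CPM, highest in A2B1 1, against 5.39 to 6.13 CPM in controls. Nothing in the labels ties each library to its own animal, and p-values here therefore describe only how these libraries spread, part of which may be technical.

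In fat given Hnrnpa2b1, Vegfa rose 1.53-fold, Angpt2 fell to 8.59 CPM against 15.1 CPM in controls, and Apln fell to 6.09 CPM against 25.6 CPM in controls. The main VEGF receptors Kdr, Flt1 and Nrp1 and the ligands Vegfb, Vegfc and Angpt1 did not pass the test, nor did the apelin receptor Aplnr. Of the 10 genes, 1 was called higher and 2 lower at an adjusted p under 0.05 in edgeR's quasi-likelihood test. Among all 19146 tested genes 349 were called (1.82%), 95 of them higher (0.496%) and 254 lower (1.33%). At an unadjusted p under 0.05, 1 of the 10 genes was higher and 3 were lower, where 11.5% of all tested genes were higher and 12.7% lower (24.2% in all). DESeq2 called 4 of the 10, against 12.7% of all the genes it tested, and limma-voom called 2, against 2.69%. The 10 genes were chosen with earlier results of these data known, so no test was made of their count as a set. Their median log2 fold change was -0.02, and that of all tested genes 0.0021. When library totals were the sole scaling, 49 genes were higher and 251 lower, with 0 of the 10 among them.

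**Figure D1:**
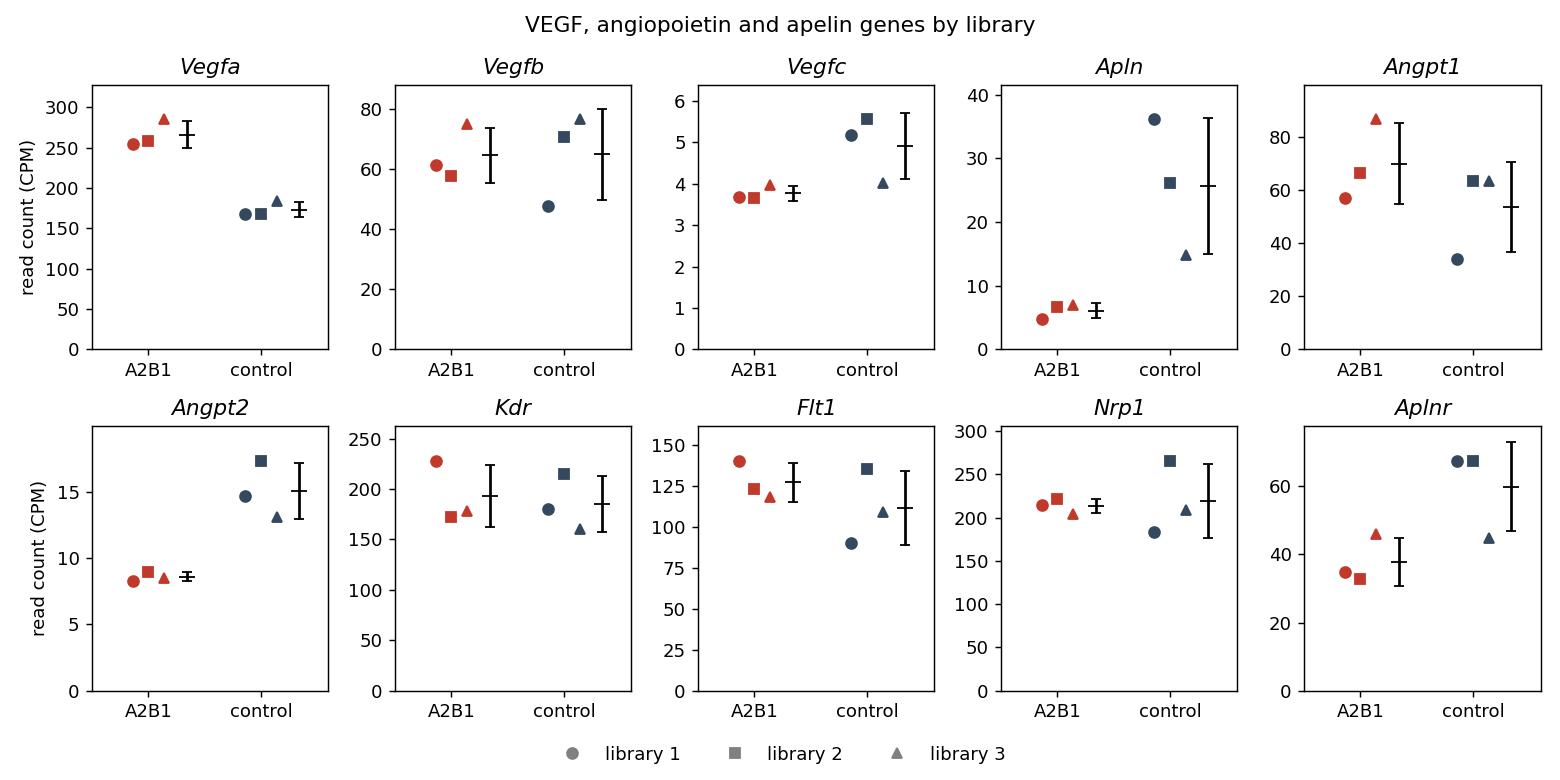
Read counts (CPM, y axes from 0) of the 10 genes in each A2B1 and control library; symbols mark the library number within its group, and the bar beside each group is the mean with its SD (n = 3). All A2B1 libraries lie above all controls for Vegfa, at 254.6 to 285 CPM, and below them for Angpt2, Apln and, narrowly, Vegfc.

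The promoters of Vegfa and Apln are shown because these 2 genes were called in opposite directions and both have a RefSeq start-site window. RefSeq start-site windows (build GRCm38.p6, the assembly named mm10) were found for 7 of the 10 genes in 8 windows; Angpt1, Angpt2 and Aplnr were not among them. Each sequence holds the 250 bases before the first listed start site, 5′ to 3′ on the minus strand, at chr17:46032378-46032627 for Vegfa and chrX:48034854-48035103 for Apln. Capitals mark matches on either strand to GGGCGG, the GC box bound by Sp and KLF factors.
Vegfa: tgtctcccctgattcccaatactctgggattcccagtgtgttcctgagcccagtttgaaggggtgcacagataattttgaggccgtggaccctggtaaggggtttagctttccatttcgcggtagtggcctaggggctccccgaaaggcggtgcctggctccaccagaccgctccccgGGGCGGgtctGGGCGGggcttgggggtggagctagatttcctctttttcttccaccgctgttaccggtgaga
Apln: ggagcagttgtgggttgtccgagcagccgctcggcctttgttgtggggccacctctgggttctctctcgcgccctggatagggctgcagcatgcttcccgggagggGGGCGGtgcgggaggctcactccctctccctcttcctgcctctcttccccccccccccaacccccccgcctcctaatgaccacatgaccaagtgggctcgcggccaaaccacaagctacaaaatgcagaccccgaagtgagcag
The GC box occurred 2 times before Vegfa and 1 time before Apln, and 32.7% of all 32851 promoter windows held it within the same 250 bases (35.7% when 50 bases after the start were added). Also searched, on both strands, was ACGTG, the core of the hypoxia response element, which 16.6% of all promoter windows held in those 250 bases. The single-site motif of estrogen-related receptors, spelled AAGGTCA, stood in 4.08% of them. A core of the cAMP response element, spelled TGACG, stood in 17.8%, and it can share its last letters with the hypoxia motif. The forkhead motif searched, spelled TGTTTAC, stood in 3.17%. These 4 strings were found in neither printed window. A second Vegfa window listed in RefSeq, which starts inside the gene, held the hypoxia motif 1 time, the cAMP motif 1 time and the GC box 1 time.

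Of the VEGF ligands tested, Vegfa was the one that edgeR called. Vegfa (ENSMUSG00000023951, mm10 chromosome 17, 46016993 to 46032369, minus strand) had 254.6, 258 and 285 CPM in A2B1 libraries 1 to 3, against 168, 167 and 184 CPM in control libraries 1 to 3. The lowest A2B1 library lay well above the highest control, and the spread within each group was small, at 266 ± 16.6 CPM in A2B1 and 173 ± 9.60 CPM in control libraries (SD, n = 3 each). On the log2 scale Vegfa was higher by 0.62 (SE 0.09, 95% interval 0.41 to 0.83). Its adjusted p was 0.0335 by edgeR, 5.2e-06 by DESeq2 and 0.0263 by limma-voom. The call was lost with library totals as the only scaling (adjusted p = 0.0594) and whenever 1 library was left out, where the log2 fold change stayed between 0.58 and 0.67. Gene counts sum all splice forms of Vegfa, which differ in how firmly they bind heparan sulfate.

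Vegfb (chromosome 19, 6982473 to 6987651), a ligand of Flt1 abundant in oxidative tissues, had 61.2, 57.6 and 74.8 CPM in A2B1 libraries and 47.6, 70.5 and 76.4 CPM in controls. The A2B1 values lay inside the range of the controls, with a log2 fold change of -0.01 (SE 0.20, 95% interval -0.48 to 0.47, adjusted p = 0.989 in edgeR). Vegfc (chromosome 8, 54077606 to 54187096), the lymphatic growth factor, was the least abundant of the 10 by count, with 3.69, 3.65 and 3.97 CPM in A2B1 libraries and 5.17, 5.55 and 4.03 CPM in controls. Its A2B1 libraries all lay under the controls, though control 3 came within a few hundredths of a CPM of A2B1 3. The log2 fold change of Vegfc was -0.38 (SE 0.18, adjusted p = 0.25 in edgeR) and missed the threshold. Of the 10 genes, 4 had groups that did not overlap, 1 higher and 3 lower. Non-overlapping groups are common here, at 30.6% of all tested genes: 15.1% had all A2B1 libraries above and 15.5% all A2B1 libraries below the controls.

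The remaining VEGF family ligands, taken from a list of 17 further ligands, receptors and co-receptors, were Vegfd and placental growth factor, Pgf. Vegfd, a second lymphatic ligand, differed by -0.11 in log2 terms (SE 0.13, edgeR adjusted p = 0.634), and its groups overlapped. Pgf, which binds Flt1, had 1.43, 3.09 and 2.11 CPM in A2B1 libraries and 5.08, 6.21 and 4.34 CPM in controls, all A2B1 libraries below all controls. Its log2 fold change of -1.23 (SE 0.32) had an adjusted p of 0.102 in edgeR and 0.00375 in DESeq2. Per kilobase of exon, Vegfa made up 52.6%, 53.4% and 52.8% of the summed level of the 5 VEGF family ligands in A2B1 libraries, against 44.9%, 38.9% and 40.2% in controls. Vegfb took 34.2% ± 2.64 in A2B1 and 40.7% ± 5.89 in control libraries (SD, n = 3 each), so the 2 ligands stood nearly level in controls and apart in A2B1 libraries. The exact two-sided permutation p for the Vegfa share was 0.1, the smallest that 3 against 3 libraries allow.

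The VEGF receptors did not pass the test in either direction. Kdr (chromosome 5, 75932827 to 75978458), the main signalling receptor, had 228, 172 and 178 CPM in A2B1 libraries and 180.3, 215 and 160.5 CPM in controls. A2B1 1 and control 2 were the highest of their groups and the groups overlapped, with a log2 fold change of 0.06 (SE 0.16, 95% interval -0.32 to 0.43, adjusted p = 0.855 in edgeR). Flt1 (chromosome 5, 147561604 to 147726011), whose count sums the membrane receptor and its soluble decoy form, had 140.2, 123 and 118 CPM in A2B1 libraries and 89.9, 135 and 109 CPM in controls. Its values also overlapped, at a log2 fold change of 0.19 (SE 0.16, 95% interval -0.20 to 0.57, adjusted p = 0.504). Nrp1 (chromosome 8, 128358604 to 128503363), the co-receptor shared with class 3 semaphorins, had 215, 221 and 204 CPM in A2B1 libraries and 183, 266 and 209 CPM in controls, with the A2B1 values inside the range of the controls. Its log2 fold change was -0.04 (SE 0.14, 95% interval -0.39 to 0.31, adjusted p = 0.896), and its count is uncertain by the reads of Mir1903, which lies in its exons on the same strand.

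**Figure D2:**
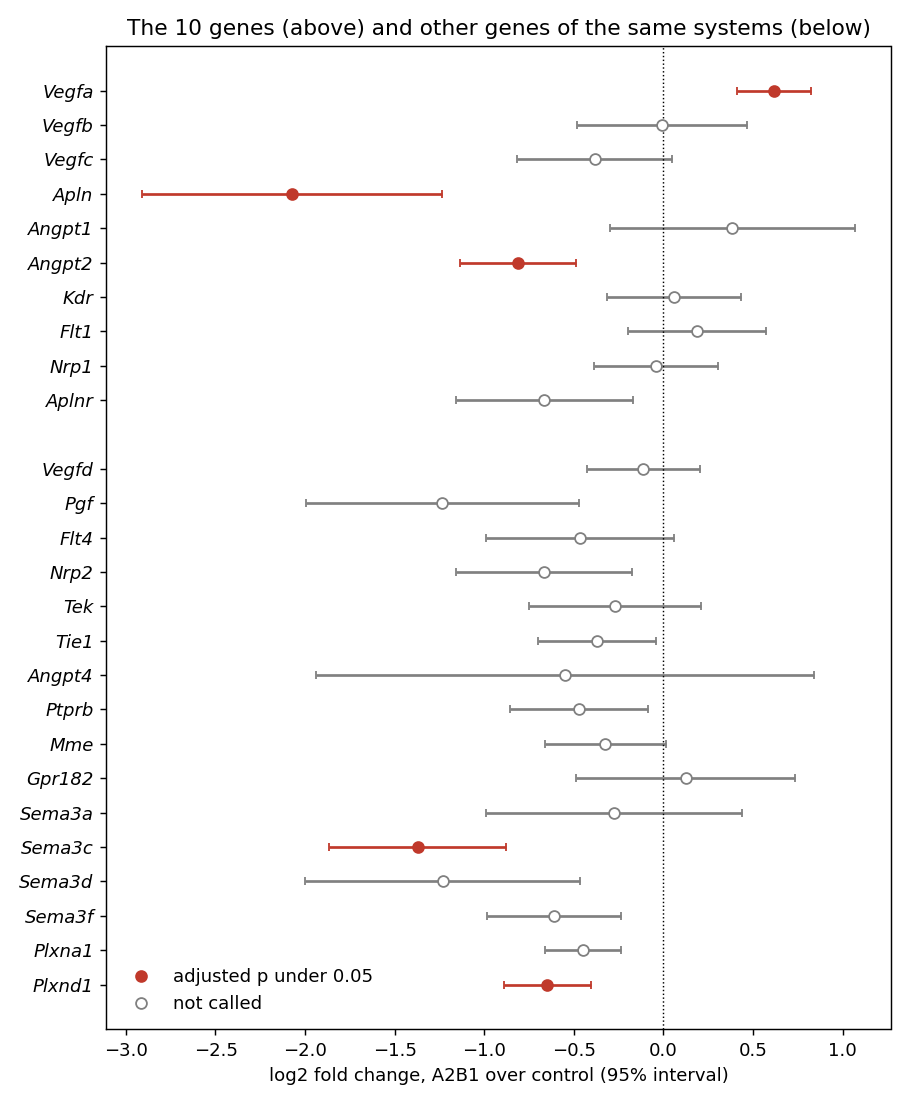
Log2 fold change (A2B1 over control, x axis) with its 95% interval from edgeR for the 10 genes, above, and the 16 tested further ligands, receptors and co-receptors of the same systems, below; filled points passed an adjusted p of 0.05. Vegfa is the only filled point right of 0, and Apln, Angpt2, Sema3c and Plxnd1 are the filled points left of it.

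Of the 2 angiopoietins, Angpt2 fell and Angpt1 did not pass the test. Angpt2 (ENSMUSG00000031465, chromosome 8, 18690263 to 18741562, minus strand), the context-dependent antagonist of Tek, had 573, 714 and 632 counts or 8.30, 8.98 and 8.497 CPM in A2B1 libraries, against 1107, 1547 and 1100 counts or 14.7, 17.4 and 13.1 CPM in controls. Every A2B1 library lay below every control, and the A2B1 libraries were close together. The log2 fold change was -0.81 (SE 0.13, 95% interval -1.13 to -0.49), a 1.75-fold lower level, with adjusted p = 0.046 by edgeR, 6.7e-05 by DESeq2 and 0.0466 by limma-voom. The call on the Angpt2 log2 fold change ended with library totals (adjusted p = 0.0585), without the count filter (0.0573) and in each fit without 1 library, where the log2 fold change ranged from -0.90 to -0.69.

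Angpt1 (chromosome 15, 42424723 to 42676977), the agonist of Tek, had 56.9, 66.2 and 86.5 CPM in A2B1 libraries and 33.8, 63.3 and 63.3 CPM in controls. Control 1 was the lowest of the 6 and A2B1 3 the highest, and the groups overlapped. The log2 fold change was 0.38 (SE 0.28, 95% interval -0.30 to 1.07, adjusted p = 0.442 in edgeR), and exons of Angpt1 overlap those of Gm17473, which runs on the opposite strand, making this count uncertain. The ratio of Angpt2 to Angpt1 counts was 0.146, 0.136 and 0.0983 in A2B1 libraries, against 0.434, 0.274 and 0.207 in controls. All A2B1 ratios lay below all control ratios, a 2.33-fold lower geometric mean ratio with an exact two-sided permutation p of 0.1 (0.175 adjusted over 7 ratios). The receptors and the phosphatase of this system sat lower without a call. Tek stood at a log2 fold change of -0.27 (SE 0.20, edgeR adjusted p = 0.443) and Tie1, its partner receptor, at -0.37 (SE 0.14, adjusted p = 0.176). Ptprb, the endothelial phosphatase that restrains Tek, stood at -0.47 (SE 0.16, adjusted p = 0.161). Tek, Tie1 and Ptprb are also among the 25 endothelial markers summed below, whose median log2 fold change was -0.34. Nothing particular to angiopoietin signalling is read from their values. Angpt4 was barely detected, with at most 0.514 CPM in any library.

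Apln had the largest change of the 10 genes. Apln (ENSMUSG00000037010, chromosome X, 48025146 to 48034853, minus strand) had 331, 523 and 514 counts or 4.79, 6.58 and 6.91 CPM in A2B1 libraries, against 2720, 2325 and 1236 counts or 36.1, 26.1 and 14.8 CPM in controls. The lowest control, control 3, held more than the highest A2B1 library, and the controls spread widely among themselves (6.09 ± 1.14 CPM in A2B1 and 25.6 ± 10.7 CPM in control libraries; SD, n = 3 each). The log2 fold change was -2.07 (SE 0.35, 95% interval -2.91 to -1.24), a 4.21-fold lower level, with adjusted p = 0.0492 by edgeR, 1.9e-08 by DESeq2 and 0.063 by limma-voom, where the call was lost. Control 1, the library with the most B and T cell transcripts, was also the highest for Apln; without it the Apln log2 fold change was -1.74 (adjusted p = 0.0912), and the part of these transcripts in the result was not tested. The call was also lost with library totals (0.0546), without the count filter (0.0573) and in the other fits without 1 library except that without control 3 (0.0499). Since Apln lies on the X chromosome, sex was checked. Ddx3y, on the Y chromosome, had 92.9 to 138 CPM in A2B1 and 102 to 121 CPM in control libraries. Xist had at most 0.175 CPM in any library, so every library had the pattern of male tissue. Eif2s3y, also on the Y chromosome, had 92.3 to 102 CPM in A2B1 and 68.9 to 83.8 CPM in control libraries (edgeR adjusted p = 0.13), without overlap. The Y-linked Kdm5d had 38.0 to 47.8 CPM in A2B1 and 33.6 to 39.8 CPM in control libraries (edgeR adjusted p = 0.263).

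Aplnr (chromosome 2, 85136225 to 85139923), the apelin receptor of endothelial cells, had 34.8, 32.7 and 45.9 CPM in A2B1 libraries and 67.5, 67.4 and 44.8 CPM in controls. Control 3 fell just below A2B1 3, so the groups overlapped. The log2 fold change was -0.66 (SE 0.20, 95% interval -1.16 to -0.17), and the adjusted p was 0.142 by edgeR and 0.0255 by DESeq2. Control 3 was the lowest control for both Apln and Aplnr. The ratio of Apln to Aplnr counts was 0.138, 0.201 and 0.15 in A2B1 libraries and 0.534, 0.387 and 0.329 in controls, all A2B1 ratios below all controls (exact two-sided permutation p = 0.1, adjusted over 7 ratios 0.175). Apela, the other ligand of Aplnr, did not pass the count filter. Mme (neprilysin), a peptidase that can cleave apelin, stood at -0.33 on the log2 scale (SE 0.14, edgeR adjusted p = 0.219).

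Within libraries, Vegfa stood higher relative to Vegfb and Vegfc, without passing an adjusted threshold. The balance of the 2 Vegfa receptors did not shift beyond the spread. The Vegfa to Vegfb count ratio was 4.16, 4.48 and 3.81 in A2B1 libraries and 3.53, 2.38 and 2.41 in controls, with no overlap. Vegfa counts exceeded those of Vegfc by a ratio of 69.0, 70.8 and 71.9 in A2B1 libraries, against 32.5, 30.1 and 45.8 in controls. This was a 1.99-fold higher geometric mean ratio. Both ratios had an exact two-sided permutation p of 0.1 and 0.175 adjusted over 7. The Flt1 to Kdr ratio was 0.614, 0.714 and 0.661 in A2B1 libraries and 0.499, 0.627 and 0.68 in controls, with overlap (log2 difference 0.15, exact p = 0.5). Set against its receptors, Vegfa had log2 differences of 0.41 over Flt1 and 0.56 over Kdr, again with overlapping groups (exact p = 0.2 for each, 0.233 adjusted). These are ratios of counts within a library, so gene length cancels when the groups are compared but not in the ratio itself.

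**Figure D3:**
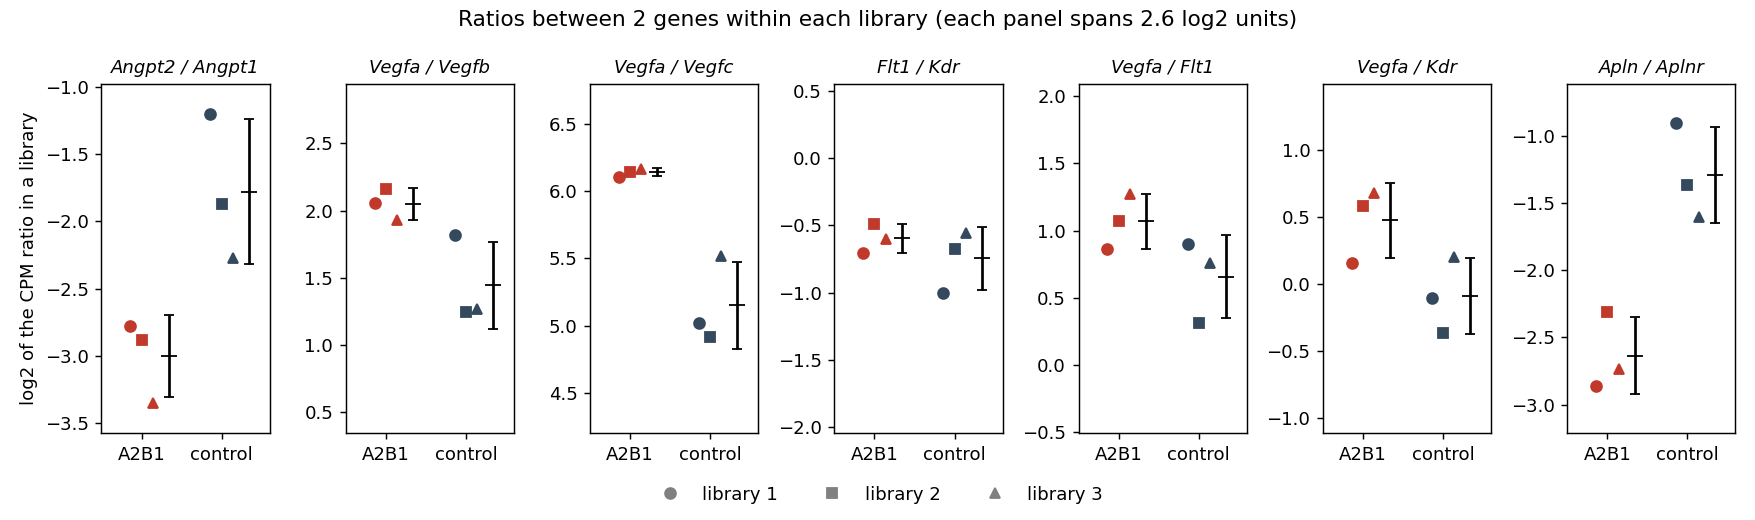
Log2 ratio of the CPM of 2 genes within each library (y axes, each spanning the same range of log2 units), for the A2B1 and control libraries, with the group mean and SD (n = 3) beside the points. The groups are apart for Angpt2 over Angpt1, Vegfa over Vegfb, Vegfa over Vegfc and Apln over Aplnr, and overlap for Flt1 over Kdr, Vegfa over Flt1 and Vegfa over Kdr.

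Most of the receptors here are made by endothelial cells, and in tissue RNA fewer cells of a type and less RNA per cell cannot be told apart. The 25 endothelial markers listed without the 10 genes summed to 2125, 1983 and 1911 CPM in A2B1 libraries, against 2182, 3091 and 2208 CPM in controls. The A2B1 sums all lay below the controls, by little except for control 2, with a log2 difference of -0.30 and an exact two-sided permutation p of 0.1. Of the 25 markers 0 were called by edgeR, and 24 had a log2 fold change below 0 (49.7% of all tested genes did). At an unadjusted p under 0.05, 8 were lower and 0 higher (12.7% and 11.5% of all tested genes). DESeq2 called 3 and limma-voom 0 (12.7% and 2.69% of all the genes each tested). The transcription factor Erg stood at -0.59 on the log2 scale (SE 0.15, edgeR adjusted p = 0.102) and the secreted protein Egfl7 -0.37 (SE 0.09, adjusted p = 0.0935), whose exons overlap Agpat2 and Mir126a among others.

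Relative to that sum, 4 of the 10 genes lay higher in every A2B1 library than in every control, and 2 lay lower in every one. The sum itself was lower in A2B1 libraries, which adds about 0.30 to the log2 difference of every gene, and of all 19146 tested genes 27.9% were higher without overlap by the same ratio and 4.07% lower (31.9% in all). Vegfa had a log2 difference of 0.91 in its ratio to the summed markers, Flt1 0.50, Kdr 0.35 and Nrp1 0.27. The ratio of Flt1 to the sum was 0.066, 0.062 and 0.0617 in A2B1 libraries and 0.0412, 0.0437 and 0.0495 in controls. That of Kdr was 0.107, 0.0869 and 0.0933 in A2B1 libraries and 0.0826, 0.0696 and 0.0727 in controls. The shift of these receptors against their CPM is that common offset, and nothing particular to them is read from it. Angpt2 had a log2 difference of -0.51 and Apln of -1.70, both without overlap, and Aplnr of -0.36 with overlap. Each of the 6 non-overlapping ratios had an exact two-sided permutation p of 0.1, and 0.167 adjusted over the 10 genes.

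**Figure D4:**
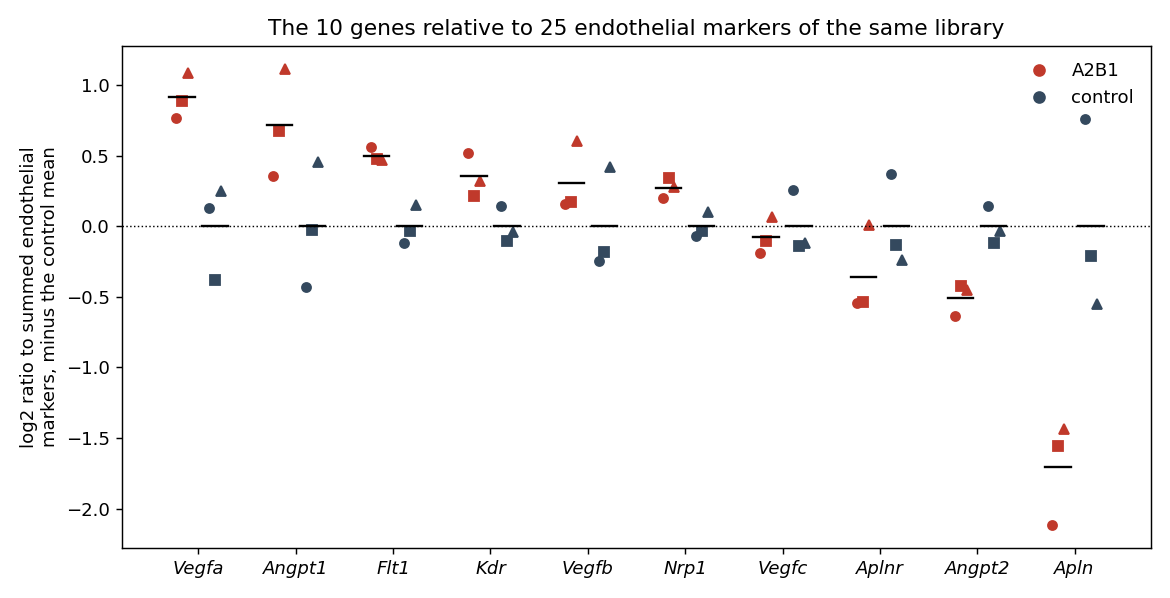
Log2 ratio of each gene's CPM to the summed CPM of 25 endothelial markers in the same library, minus the control mean (y axis), with bars at the group means; genes run from the largest to the smallest difference. Vegfa (0.91), Flt1 (0.50), Kdr (0.35) and Nrp1 (0.27) have all A2B1 libraries above the controls, and Angpt2 (-0.51) and Apln (-1.70) have all below; the lower marker sum in A2B1 libraries raises every gene by about 0.30.

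Per kilobase of exon, Vegfa was the most abundant of the 10 genes in A2B1 libraries, at 62.1 ± 3.88 CPM per kb, followed by Vegfb at 40.2 ± 5.67 (SD, n = 3 each), and the libraries of these 2 did not overlap. In controls Vegfa at 40.4 ± 2.24 and Vegfb at 40.4 ± 9.48 CPM per kb did overlap (SD, n = 3 each). Nrp1 and Kdr came next in both groups, at 21.8 and 21.4 CPM per kb in A2B1 and 22.4 and 20.5 CPM per kb in control libraries, and were not separated in either. Apln stood among the lowest levels in A2B1 libraries, at 1.94 ± 0.362 CPM per kb, but near Flt1 in controls, at 8.14 ± 3.39 against 8.25 ± 1.68 CPM per kb for Flt1 (SD, n = 3 each). Angpt2 had 2.33 CPM per kb in A2B1 and 4.08 CPM per kb in control libraries, and Vegfc was lowest in both groups, at 1.54 and 2.01 CPM per kb. The exon lengths are unions over all annotated transcripts, so these levels are understated for genes with many long, rarely used exons.

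**Figure D5:**
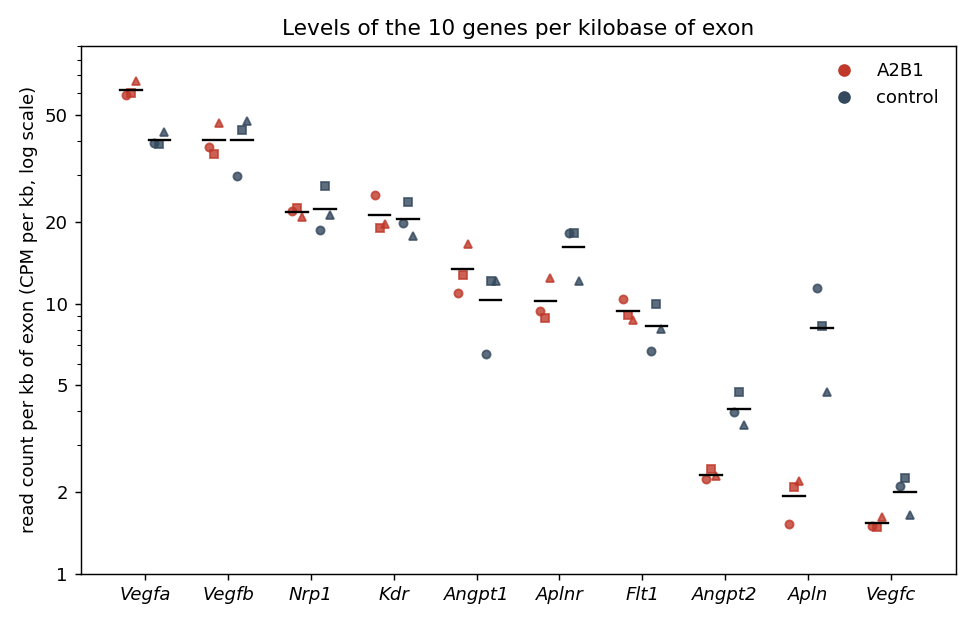
Read count per kilobase of exon union (CPM per kb, log axis) of the 10 genes in each A2B1 and control library, ordered by the A2B1 mean; black bars are group means (n = 3). Vegfa leads in A2B1 libraries at 62.1 CPM per kb, and Apln lies at 1.94 CPM per kb in A2B1 libraries but beside Flt1 in controls.

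Among the wider list of ligands, receptors and co-receptors of the 3 systems, most values were below 0. Of 16 tested genes 2 were called lower and 0 higher (1.33% and 0.496% of all tested genes). A log2 fold change below 0 was found for 15 of the 16, against 49.7% of all tested genes, and the list median was -0.47. Tek, Tie1 and Ptprb are counted both here and among the 25 endothelial markers. Both called genes belong to semaphorin signalling, which shares receptors with VEGF. Sema3c, a secreted ligand of neuropilins and Plxnd1, had 52.8, 53.3 and 37.3 CPM in A2B1 libraries, against 154.7, 109 and 107 CPM in controls, all A2B1 libraries below all controls. Its log2 fold change was -1.37 (SE 0.20, adjusted p = 0.038 in edgeR). Plxnd1, the endothelial plexin that relays semaphorin signals, had 87.5, 96.9 and 95.2 CPM in A2B1 libraries, against 158, 151 and 129 CPM in controls, with a log2 fold change of -0.65 (SE 0.10, edgeR adjusted p = 0.0402). Plxna1, another plexin, whose exons overlap Gm26811 on the other strand, stood at -0.45 (adjusted p = 0.0647), Sema3f at -0.61 (adjusted p = 0.101), Sema3d at -1.23 (adjusted p = 0.103) and Sema3a at -0.28 (adjusted p = 0.602). Nrp2, the neuropilin of lymphatic and venous endothelium, stood at -0.67 on the log2 scale (SE 0.20, edgeR adjusted p = 0.141) with all A2B1 libraries below all controls, where its paralog Nrp1 stood at -0.04. The lymphatic receptor Flt4 had -0.46 (adjusted p = 0.25) and the atypical endothelial receptor Gpr182, which overlaps Zbtb39 on the other strand, 0.12 (adjusted p = 0.799). Angpt4 stood at -0.55 (adjusted p = 0.593). Sema3c kept its call in all 7 other scalings, filters and tools and Plxnd1 in 6, and each lost it in the 6 fits without 1 library.

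Tip cell genes, which mark the leading cells of sprouts and include Angpt2 and Apln, had 12 of 12 log2 fold changes below 0. Among all tested genes 49.7% lay below 0, and of the 25 endothelial markers 24 did. The sign was therefore not particular to tip cell genes. The list median was -0.77, with Angpt2 and Apln included. The 2 called were Angpt2 and Apln themselves; the other 10 were not called by edgeR at the adjusted threshold, and DESeq2 called 7 of the 12 (12.7% of all genes it tested) and limma-voom 1 (2.69%). Esm1, a proteoglycan of tip cells, had 0.902 ± 0.18 CPM in A2B1 and 2.27 ± 0.717 CPM in control libraries (SD, n = 3 each; edgeR adjusted p = 0.0935). Cxcr4, which lymphocytes also express, had 4.01, 5.51 and 5.31 CPM in A2B1 libraries and 19.0, 11.2 and 7.90 CPM in controls, highest in control 1 (adjusted p = 0.0968 in edgeR); both genes were named here after their values were seen. Of 11 Notch pathway genes of vessels 0 were called by edgeR and 1 by DESeq2 (12.7% of all genes DESeq2 tested). At an unadjusted p under 0.05, 1 was higher and 3 lower (11.5% and 12.7% of all tested genes). Hey2, a Notch target, had a log2 fold change of 0.83 (adjusted p = 0.16 in edgeR) and the ligand Dll1, which overlaps A930024N18Rik on the other strand, -0.93 (adjusted p = 0.163).

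Hypoxia is a known inducer of Vegfa. Of 25 hypoxia targets 1 was called lower and 0 higher (1.33% and 0.496% of all tested genes). Their log2 fold changes lay above 0 in 11 and below 0 in 14 (49.7% of all tested genes lay below 0), with a median of -0.08. Of all tested genes 11.5% were higher and 12.7% lower at an unadjusted p under 0.05, and DESeq2 called 12.7% of those it tested. At the same threshold, 4 of the hypoxia targets were higher and 7 lower, and DESeq2 called 4. Ak4, a mitochondrial adenylate kinase named after its values were seen, was the higher one among those 4 (log2 1.56, DESeq2 adjusted p = 0.0161). EdgeR left Ak4 uncalled (adjusted p = 0.158), as did limma-voom (adjusted p = 0.205). Ak4 had 7.93, 2.02 and 3.05 CPM in A2B1 libraries and 1.26, 1.59 and 1.55 CPM in controls, without overlap and by far highest in A2B1 1. The called gene, Pfkfb4, a glycolytic regulator, had 8.21, 7.84 and 13.1 CPM in A2B1 libraries and 26.0, 21.5 and 26.0 CPM in controls, a log2 fold change of -1.34 (SE 0.22, edgeR adjusted p = 0.0452). Among 10 hypoxia factors and their regulators 0 were called by edgeR. At an unadjusted p under 0.05, 3 were lower and 0 higher (12.7% and 11.5% of all tested genes). DESeq2 called 2 (12.7% of all genes it tested). Vhl, which marks hypoxia factors for degradation, stood at -0.56 (SE 0.11, adjusted p = 0.0655 in edgeR) and Arnt2, a partner of those factors, at -1.40 (SE 0.34, adjusted p = 0.0929), with exons that overlap Gm30873 on the other strand. In the list of 14 coactivators and nuclear receptors linked to Vegfa in muscle and fat 0 were called by edgeR, and the median stood at 0.23. At an unadjusted p under 0.05, 3 of the 14 were higher and 0 lower (11.5% and 12.7% of all tested genes). DESeq2 called 2 of the 14 (12.7% of all genes it tested). Ppargc1a, a coactivator of mitochondrial genes and of Vegfa, had 26.2, 34.1 and 30.1 CPM in A2B1 libraries and 12.1, 20.4 and 16.1 CPM in controls (adjusted p = 0.0827 in edgeR), without overlap, and the nuclear receptor Esrrg stood at 0.94 in log2 terms (SE 0.24, edgeR adjusted p = 0.102).

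Other angiogenic ligands of fat had 1 gene called higher and 1 lower of 21 tested (0.496% and 1.33% of all tested genes), with a median of -0.15. At an unadjusted p under 0.05, 1 of these ligands was higher and 6 lower (11.5% and 12.7% of all tested genes). DESeq2 called 5 of them (12.7% of all genes it tested). Nrg4, a growth factor of brown and beige adipocytes, rose by 0.67 in log2 terms (SE 0.09, edgeR adjusted p = 0.0334), though its exons overlap Fbxo22 and Gm15625 on the other strand. Leptin (Lep), which also stimulates endothelial cells, fell by 1.90 (SE 0.17, adjusted p = 0.0166). Of 13 endogenous angiogenesis inhibitors 3 were called lower and 0 higher (1.33% and 0.496% of all tested genes). In that list 11 log2 fold changes lay below 0, as did 49.7% of all tested genes, and the median was -0.52. Vash1, an inhibitor that endothelial cells make in response to VEGF, had 1.82, 2.02 and 2.76 CPM in A2B1 libraries and 8.45, 8.43 and 6.35 CPM in controls, a 3.52-fold lower level (log2 fold change -1.81, SE 0.23, adjusted p = 0.0268). Serpinf1 (PEDF) and the matrix protein Sparc were also lower: Serpinf1 fell by 0.82 in log2 terms (SE 0.12, edgeR adjusted p = 0.038), and Sparc fell by 0.97 (SE 0.11, adjusted p = 0.0251). Inside endothelial cells, 24 signalling genes had 0 calls by edgeR and 4 by DESeq2 (12.7% of all genes DESeq2 tested). Of these 24, 1 was higher and 6 lower at an unadjusted p under 0.05 (11.5% and 12.7% of all tested genes). The smallest p-values belonged to Mapk3 (ERK1) at -0.38 (edgeR adjusted p = 0.0772) and the transcription factor Mef2c at -0.92 (edgeR adjusted p = 0.0821).

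Markers of the cells that make or receive these ligands moved in part. Among all tested genes 11.5% were higher and 12.7% lower at an unadjusted p under 0.05. DESeq2 called 12.7% of the genes it tested, and edgeR called 0.496% of all tested genes higher and 1.33% lower. Of 14 pericyte and smooth muscle markers, sources of Angpt1, 1 was called lower, Acta2 (log2 fold change -1.36, SE 0.20, adjusted p = 0.0375 in edgeR). At an unadjusted p under 0.05, 2 were higher and 6 lower, and DESeq2 called 5. Named after their values were seen, the higher ones were Cspg4 at 0.36 and Des at 0.46 in log2 terms (edgeR adjusted p = 0.161 and 0.118), both without overlap. The list sum was 626 to 794 CPM in A2B1 and 913 to 1444 CPM in control libraries. Of 13 fibroblast markers 0 were called by edgeR, 5 were lower at an unadjusted p under 0.05 and DESeq2 called 4, with Dpt at -0.43 (adjusted p = 0.0623) and Dcn at -0.48 (adjusted p = 0.0827) and sums of 4095 to 6507 CPM in A2B1 and 6070 to 6462 CPM in control libraries. Macrophage markers, of which Csf1r (adjusted p = 0.0935, overlapping Hmgxb3 on the other strand) and Cd163 (adjusted p = 0.13) had the smallest p-values, summed to 253 to 545 CPM in A2B1 and 518 to 689 CPM in control libraries, with 0 of 10 called by edgeR, 2 lower at an unadjusted p under 0.05 and 2 called by DESeq2. Of 8 lymphatic markers 0 were called by edgeR, 1 was higher and 1 lower at an unadjusted p under 0.05, and DESeq2 called 1; they summed to 69.1 to 104 CPM in A2B1 and 102 to 153 CPM in control libraries, and Prox1, which overlaps Prox1os on the other strand, had 12.8 CPM in A2B1 1 and at most 2.22 CPM elsewhere. Of 15 mature adipocyte markers 1 was called higher and 2 lower; 11 had a log2 fold change above 0, the median was 0.28, and 7 were higher and 3 lower at an unadjusted p under 0.05, with 6 DESeq2 calls. Adrb3, which overlaps Gm45470 on the other strand, rose by 1.71 in log2 terms and Lep and Cidec fell. Of 10 thermogenic markers 2 were called higher, Cidea and Cox8b, and 0 lower. In that list 9 log2 fold changes lay above 0 and 1 below, with a median of 1.04. At an unadjusted p under 0.05, 7 thermogenic markers were higher and 0 lower, and DESeq2 called 6. Of 12 B and T cell markers 0 were called by edgeR, 6 were lower at an unadjusted p under 0.05 and DESeq2 called 8. After Ighm the smallest p-value belonged to Cr2, with 0.296 to 0.608 CPM in A2B1 and 0.358 to 19.2 CPM in control libraries (edgeR adjusted p = 0.167). Of 8 tested skeletal muscle markers 1 was called lower, Pvalb, with 0 CPM in every A2B1 library and 2.19 to 7.87 CPM in controls (edgeR adjusted p = 0.0402). Of 6 tested epithelial markers 0 were called by edgeR, 3 were higher at an unadjusted p under 0.05 and DESeq2 called 3. The smallest p-values belonged to Trp63 at 1.005 and Krt8 at 4.13 in log2 terms (edgeR adjusted p = 0.069 and 0.143). Krt8, which overlaps Gm36026 on the other strand, was highest in A2B1 1. The part of these cell types in the values of Vegfa, Angpt2 and Apln was not tested.

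The genes whose levels over the 6 libraries most resembled each called gene were found by Pearson correlation of log2 CPM, as a description of 6 points that share their groups. For Vegfa they were the mitochondrial ribosomal gene Mrps30 (r = 0.996), the mitochondrial GTPase gene Mtg2 (r = 0.995) and Mospd1 (r = 0.993), of which Mospd1 was itself called higher (log2 fold change 0.51, adjusted p = 0.0325 in edgeR). Those nearest to Angpt2 were the G protein subunit gene Gnb4 (r = 0.995), the matrix gene Hmcn2 (r = 0.992) and Galc (r = 0.991), a lysosomal galactosylceramidase. Hmcn2 was called lower at a log2 fold change of -2.92 (SE 0.31, edgeR adjusted p = 0.0245) and Gnb4 at -0.61 (SE 0.10, adjusted p = 0.0468). Apln was most alike Gas2l3 (r = 0.9995), the kinase scaffold Ksr1 (r = 0.996) and the actin regulator Coro1c (r = 0.996), of which Coro1c was called lower (log2 fold change -0.76, SE 0.12, adjusted p = 0.0427).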

How the data were processed

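Per the labels' protocols, frozen fat was extracted with Trizol and sequenced from Illumina TruSeq libraries. The authors deposited 1 table of raw read counts per gene, with 1 column per library, per the file headers; the submitters' processing notes name Bowtie and mm10. The counting program, annotation and strand rule (not given in the sources used here) bear on genes with overlapping exons, whose counts are uncertain. No value column lacked a sample (0).

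Counts were analysed in R 4.3.3. Genes passing edgeR's filterByExpr (19146 of 52550) were scaled by TMM (factors 0.917 to 1.03) and tested with edgeR 4.0.16 (quasi-likelihood F test, robust, group as the only term, two-sided, Benjamini-Hochberg adjusted p under 0.05). SE is the size of the log2 fold change divided by the square root of F. Totals of 72961324 to 86663359 counts set the precision. Ratios used exact permutation tests. Coordinates and exon lengths come from GENCODE M21 (mm10), promoters from RefSeq. Alternatives were other scalings, filters, DESeq2 1.42.0, limma-voom (limma 3.58.1) and leaving out libraries. The fit was tested on simulated counts.

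The 10 genes and the lists were chosen with earlier results of these data known. Named were the 10 genes, all tested genes of the list of further ligands and receptors, up to 4 called genes of each other list (2 by p where 0 were called), and the 3 genes most correlated with each called gene. Genes marked as such, and members given as part of a list's values, were named beyond that rule. The list of further ligands and receptors is given without 1 gene, which is not reported here.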

Additional observations from a re-analysis of the deposited data

How the results depend on the processing

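Calls were fragile and directions mostly were not. Of the 10 genes, 1 was called higher and 2 lower in the edgeR test. Library totals as the only scaling called 0 higher and 0 lower, limma-voom called 1 lower, no count filter called 0 lower, and the other scalings and the CPM filter left these counts as they were, as did DESeq2 for the gene called higher; DESeq2 called 3 lower. Leaving out 1 library gave 0 higher, and 0 to 1 lower. Leaving out A2B1 1 and control 1 together, chosen after seeing the data, gave 0 and 0. The genes called higher among all genes tested numbered 95 and the genes called lower among all genes tested 254; those higher numbered 49 with library totals, 164 with limma-voom and 147 with the CPM filter, and DESeq2 called 1084 higher and 1474 lower. An adjusted p under 0.1 gave 472 higher and 798 lower. Without 1 library 2 to 12 were higher and 7 to 45 lower, and without A2B1 1 and control 1 together 2 and 5.

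Vegfa, Angpt2, Apln, Aplnr, Angpt1 and Vegfc kept their sign in every fit. Genes near 0 changed sign: without 1 library the log2 fold change lay between -0.18 and 0.13 for Vegfb, -0.062 and 0.18 for Kdr, -0.15 and 0.13 for Nrp1, -0.20 and 0.020 for Vegfd, -1.02 and 0.0037 for Angpt4 and -0.055 and 0.38 for Gpr182. It was 0.017 for Vegfb without the count filter, -0.0043 for the Kdr log2 fold change and -0.010 for Gpr182 in limma-voom, and, without A2B1 1 and control 1 together, -0.10 for Kdr, -0.020 for the Flt1 log2 fold change, -0.15 for Gpr182 and 0.019 for Sema3a. The group difference in the log2 ratio of Vegfc over summed endothelial markers ranged from -0.148 to 0.0538 without 1 library. The cause of the lost calls was not tested, except that fewer libraries enter the fits without 1. No paired analysis was possible because the labels give the groups no shared replicate numbers.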
